A study of Mus musculus with 10 samples.

Results

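Genes of the Hsp70, Hsp110, Hsp90, Hsp40, Hsp60/Hsp10 and TRiC chaperones, with 4 cochaperones and the heat shock factors, were followed in adult mouse muscle. The list held 47 genes, chosen by symbol and known function; measured values were not part of the rule, though earlier results of these data were known. Of these, 44 were read among the 19938 genes of the arrays, 33 of them with products that work in the cytosol or nucleus, 6 in the endoplasmic reticulum (ER) and 5 in mitochondria. Hspa1b, Hsp90ab1 and Hsf1 had no probe set with them as its only gene and were not analysed here.

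The RNA came from 2 fast muscles of mice of the strain spelled C56BL6N in the labels, which give an age of 8 weeks; for TA the methods give that age for the electroporation, and labels and methods do not settle the age at sampling. In the tibialis anterior (TA), 10 µg of a plasmid was electroporated, and after 2 weeks the fibers that showed green fluorescence were taken. The plasmid carried an shRNA against linc-MYH, a long noncoding RNA of the fast myosin locus, on 2 arrays and was the control vector on 2 others; the methods name an shRNA against LacZ, given in the opposite leg, as the control of such experiments. In the gastrocnemius, 3 arrays of cSix1 KO mice (a conditional knockout made with HSA-CRE, a recombinase driven by the human skeletal actin promoter) were set against 3 of control mice labelled wild type. Cells of the gastrocnemius in which that promoter is silent are not targeted. The targeted RNAs were not analysed here, so the values give no check of either perturbation. The purpose of the study was to find which genes respond to either perturbation, and each muscle was compared with its own controls only.

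Chaperones bind unfolded stretches of proteins and keep them from aggregating until they fold. Hsp70 proteins hold and release a client as they hydrolyze ATP; Hsp40 (J-domain) proteins bring the client and start hydrolysis, and Hsp110 proteins exchange the nucleotide. Hsp90 acts later, on clients close to their folded state, while the chaperonins TRiC in the cytosol and Hsp60/Hsp10 in mitochondria enclose a client in a chamber. In muscle, myosin heads need Hsp90 and the cochaperone Unc45b to fold, and actin and tubulin need TRiC. Heat shock factors act through alternating GAA and TTC units, the heat shock element (HSE), and the ER chaperones through the ER stress element (ERSE) that Atf6 and its partner NF-Y use.

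Promoter sequences are shown for the members in which such elements were found, since they sort the genes by a feature that the list did not use. The RefSeq table of GRCm38.p6 gave a window of 250 bases before to 50 after the start for 39 of the 47 listed genes, Hspa1b among them. It gave none for Hsp90aa1, Hsp90ab1, Hspa8, Hspa9, Hspa13, Dnajc5, Cct4 or Hsf1, so these were not searched for motifs. An HSE of 3 units (GAA, TTC and GAA, or TTC, GAA and TTC, with any 2 bases between units) stood in the windows of 4 members, Dnajb6, Hspd1, Hspe1 and Hsph1, and in 0.603% of all 32851 windows. The ERSE (CCAAT and CCACG with any 9 bases between them, on either strand) stood in those of Hspa5, Hsp90b1 and Dnajc3 and in 0.119% of all windows. The shorter pairs TTCNNGAA and GAANNTTC, which overlap the longer motif, were matched in 8.52% and 7.86% of windows and in those of 7 and 9 members. The 250 bases before the start are printed 5′ to 3′ for 2 HSE and 2 ERSE genes, with the motif in capitals. Dnajb6 lies at chr5:29735648-29735897 (+), Hspe1 at chr1:55087898-55088147 (+), Hspa5 at chr2:34771840-34772089 (+) and Hsp90b1 at chr10:86705445-86705694 (-).
Dnajb6: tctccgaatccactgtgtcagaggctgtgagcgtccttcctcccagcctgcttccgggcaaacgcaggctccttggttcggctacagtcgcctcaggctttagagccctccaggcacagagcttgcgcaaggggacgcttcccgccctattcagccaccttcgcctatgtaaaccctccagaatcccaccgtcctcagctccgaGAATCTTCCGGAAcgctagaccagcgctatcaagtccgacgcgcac
Hspe1: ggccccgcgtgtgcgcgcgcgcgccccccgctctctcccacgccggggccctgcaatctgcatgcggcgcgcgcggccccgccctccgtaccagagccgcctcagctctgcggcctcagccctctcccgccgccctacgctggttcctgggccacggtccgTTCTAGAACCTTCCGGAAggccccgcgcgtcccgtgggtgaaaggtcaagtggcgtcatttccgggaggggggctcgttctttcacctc
Hspa5: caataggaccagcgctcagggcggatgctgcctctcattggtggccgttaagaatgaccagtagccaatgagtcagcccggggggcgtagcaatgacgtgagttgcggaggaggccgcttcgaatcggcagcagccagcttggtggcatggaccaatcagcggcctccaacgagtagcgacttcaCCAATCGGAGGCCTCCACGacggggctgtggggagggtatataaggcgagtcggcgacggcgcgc
Hsp90b1: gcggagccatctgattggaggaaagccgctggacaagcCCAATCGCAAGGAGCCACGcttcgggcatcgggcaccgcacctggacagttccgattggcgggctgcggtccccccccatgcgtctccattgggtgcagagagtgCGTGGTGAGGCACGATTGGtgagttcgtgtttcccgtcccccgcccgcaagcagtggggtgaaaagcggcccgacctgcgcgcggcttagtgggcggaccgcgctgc
In Hspe1 the capitals hold 2 overlapping matches, and in Hsp90b1 there are 2 separate ones, the second on the opposite strand. A match of letters is a description and was not read as a site bound in these muscles.

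Replicates correlated at 0.9884 to 0.9967 over all genes (Pearson, over genes), and cSix1 KO replicate 3 was the less alike of its group, at 0.9917 and 0.9935 with the other KO arrays, which correlated at 0.9967. Markers of skeletal fibers read high in every array, with mean log2 signals of 12.23 to 12.41 in TA and 13.35 to 13.53 in gastrocnemius. In TA, 10 of 10 endothelial markers were below control with shlinc-MYH, with array means of 6.13 and 6.63 against 7.01 and 6.91 in controls. Markers of satellite cells and regenerating fibers, taken as 1 set, read 6.88 and 6.60 there against 6.03 and 5.74, with 7 of 8 above control. The size differed between genes. Myh3, Myh8, Myog and Mymk had log2 fold changes of 1.08 to 1.81 in TA, and Myod1 was at 0.54. Pax7, Myf5 and Cdh15 were at -0.06, 0.03 and 0.23, so the mean of the set does not show a rise of each marker. In gastrocnemius 10 of 10 macrophage markers were above control (means 8.39 to 8.99 in KO, 7.91 to 8.10 in controls), and so were 7 of 8 satellite and regeneration markers (7.72 to 8.16 against 7.39 to 7.51). Fibroblast markers were above control for 8 of 8 (10.86 to 10.91 against 10.21 to 10.66) and adipocyte markers for 6 of 6, though the adipocyte arrays overlapped (8.34 to 9.02 against 8.17 to 8.80). Smooth muscle and pericyte markers in TA were below control for 6 of 6, with a median of -0.49, though the array means overlapped (6.38 and 6.71 against 7.37 and 6.68). The part of these cell types in the chaperone values was not tested, and in whole tissue fewer cells of a type cannot be told from less RNA per cell.

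In TA with shlinc-MYH, most chaperone genes of the cytosol and all 6 of the ER read above control, by a median log2 fold change of 0.28 over the 44 members, while the mitochondrial genes did not shift together. No member passed the limma test after Benjamini-Hochberg adjustment over all genes at 0.05, which only 3 genes (0.015%) did in this comparison of 2 arrays with 2. At an unadjusted p under 0.05, 17 members (38.6%) were higher and 2 lower, where 4.27% of all genes were higher and 4.37% lower. The log2 fold change was above 0 in 37 of 44 members, against 43.7% of all genes, and above 0.25 in 24, against 8.68%. Both shlinc-MYH arrays lay above both controls for 28 members (63.6%; all genes, 16.3%) and below both for 5 (11.4%; all genes, 23%). The median over all genes was -0.03. With the spread estimated over all 10 arrays in 1 fit, 131 genes were called, 4 members among them: Hspa2, Hsp90aa1, Dnajb6 and Dnajb11. Satellite and regeneration markers, which differed widely between genes, had a median of 0.81 in this comparison and endothelial markers one of -0.57.

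**Figure D1:**
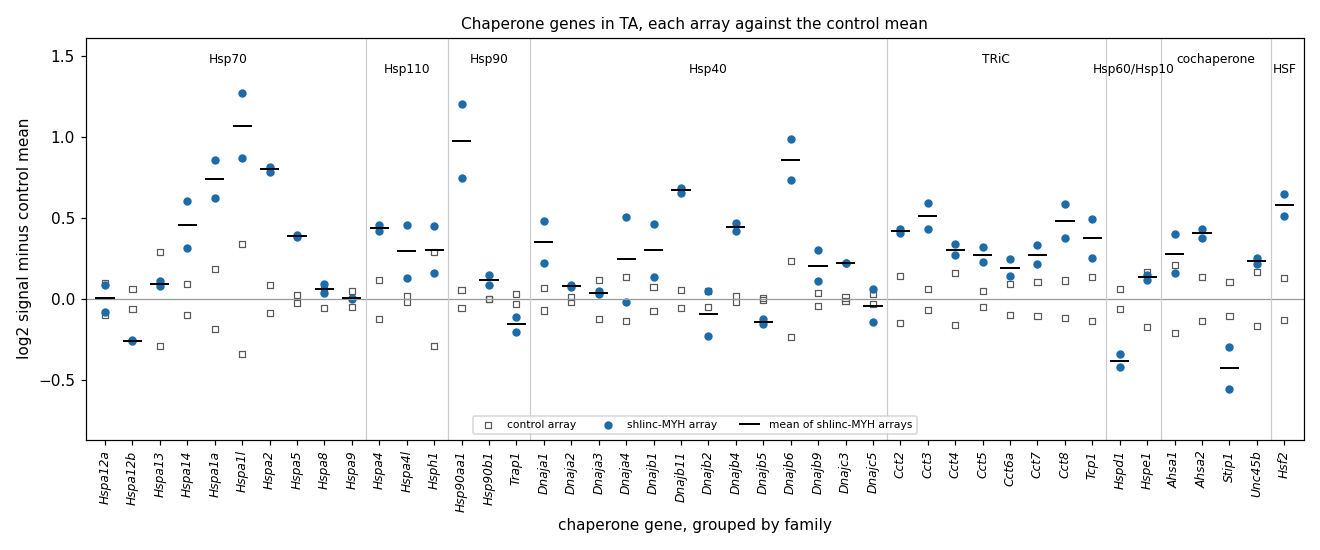
Log2 signal of each of the 44 chaperone genes on each TA array, minus the mean of the 2 control arrays; the x axis lists the genes by family. Squares are control arrays, circles shlinc-MYH arrays and bars the mean of the shlinc-MYH arrays. Hspa1l, Hsp90aa1, Dnajb6, Hspa2 and Hspa1a stand highest, all 8 TRiC genes lie above 0, and Stip1 and Hspd1 stand lowest.

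Hsp70 genes of the Hspa1 cluster had some of the largest values in TA. Hspa1a, the Hsp70 that cells make under stress, read 6.70 and 6.33 in controls and 7.37 and 7.14 with shlinc-MYH. The groups did not overlap, and the log2 fold change was 0.74 (SE 0.17, n = 2 per group, limma adjusted p = 0.431). Hspa1l, its close relative of the same gene cluster, read 6.66 and 7.34 in controls and 7.87 and 8.27 with shlinc-MYH, a change of 1.07 (SE 0.25, limma adjusted p = 0.433), or 2.1-fold. The 2 controls differed by more than the gap between the groups, and without control replicate 1 the change was 0.73. Hspa1a and Hspa1l start head to head on chromosome 17, 547 bases apart, and members of this cluster resemble each other closely enough that a probe set may read more than 1 of them.

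Hspa2, an Hsp70 best known from the testis that muscle also transcribes, was the member with the smallest p in TA. It read 6.36 and 6.19 in controls and 7.09 and 7.06 with shlinc-MYH. Both shlinc-MYH arrays agreed within 0.03 and stood clear of controls, with a log2 fold change of 0.80 (SE 0.12, 95% confidence interval 0.50 to 1.09, limma adjusted p = 0.225).

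The housekeeping members of the Hsp70 family were near control. Hspa8, the constitutive Hsp70, read 11.74 and 11.85 in controls and 11.83 and 11.89 with shlinc-MYH, at the 99.8th percentile of all genes, and its 3 probe sets gave 0.07, -0.03 and 0.08. Hspa9, the mitochondrial Hsp70, read 10.57 and 10.67 against 10.62 and 10.63, a log2 fold change of 0.01. Both overlapped their controls. A shift of very bright genes can be compressed on these arrays, so a small change at such signals is a weak reading.

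Hspa5 (BiP), the Hsp70 of the ER, read 8.56 and 8.61 in controls and 8.98 and 8.97 with shlinc-MYH, a log2 fold change of 0.39 (SE 0.11, limma adjusted p = 0.489). The groups did not overlap, and the control SD of 0.03 rests on 2 arrays only. Among the others, Hspa14, a ribosome-bound Hsp70, was at 0.46 with groups that did not overlap, and Hspa13 and Hspa12a were at 0.10 and 0.00. Hspa12b, which is known from endothelial cells, was at -0.26 with both arrays below both controls, in the comparison where endothelial markers had a median of -0.57; the part of endothelial RNA in its value was not tested.

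All 3 Hsp110 genes were above 0 in TA. Hspa4 read 8.79 and 9.03 in controls and 9.37 and 9.33 with shlinc-MYH, a log2 fold change of 0.44 (SE 0.13, limma adjusted p = 0.494), with no overlap. Hsph1 read 7.89 and 8.47 against 8.34 and 8.63, which overlapped, and was at 0.30 (SE 0.21). Hspa4l was also at 0.30.

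Hsp90aa1, the stress-inducible cytosolic Hsp90, had the second largest change of all members in TA. Control arrays read 8.78 and 8.67 and shlinc-MYH arrays 9.47 and 9.93, a log2 fold change of 0.98 (SE 0.17, 95% confidence interval 0.56 to 1.40, limma adjusted p = 0.306). Its 3 probe sets gave 0.98, 0.93 and 0.90, so the size did not depend on which was read. The Hsp90 proteins of the other compartments stood apart from it: Hsp90b1 (Grp94) of the ER, at 10.44 and 10.44 against 10.53 and 10.59, was at 0.12, and Trap1 of mitochondria, at 8.11 and 8.05 against 7.97 and 7.88, was at -0.15.

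Among 13 Hsp40 genes, 10 were above 0 in TA (all genes, 43.7%) and 8 had both shlinc-MYH arrays above both controls (all genes, 16.3%). Dnajb6, which keeps desmin and other muscle proteins soluble and is mutated in a limb-girdle muscular dystrophy in humans, read 5.87 and 5.40 in controls and 6.62 and 6.37 with shlinc-MYH. The change was 0.87 (SE 0.19, limma adjusted p = 0.423), from a control signal at the 57.9th percentile of all genes. It rests on 1 probe set, and 4 others that Dnajb6 shares with other genes were not read. Dnajb11, an Hsp40 of the ER that works with BiP, read 7.77 and 7.66 against 8.37 and 8.40, a change of 0.67 (SE 0.12, limma adjusted p = 0.302). Both shlinc-MYH arrays of these genes stood clear of both controls.

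Other Hsp40 genes ranged widely. Dnajb4 was at 0.45 and Dnaja1 at 0.34 without overlap. A dimmer probe set of Dnaja1 gave 0.2, with 8.42 and 8.43 in controls against 8.8 and 8.45 with shlinc-MYH. Dnaja2 was at 0.08, from 9.48 and 9.51 to 9.58 and 9.57, and Dnajb9 (ERdj4), an ER Hsp40 of the unfolded protein response, at 0.21, from 8.09 and 8.01 to 8.35 and 8.16. Dnajb1, the partner of inducible Hsp70, was at 0.30, from signals near the middle of the range. Dnaja3, the mitochondrial Hsp40, was at 0.04 and its arrays (8.11 and 8.35 against 8.28 and 8.26) overlapped. Dnajb5 was at -0.14, and it was the one Hsp40 with both arrays below both controls.

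The 8 TRiC subunits were all above 0 in TA. TRiC stacks 2 rings, each made of these 8 subunits, and needs all of them. Both shlinc-MYH arrays lay above both controls for 8 of 8 genes, where 16.3% of all genes did so. The log2 fold changes ran from 0.20 (Cct6a) to 0.51 (Cct3), with a median of 0.34. Cct3 read 6.76 and 6.89 in controls and 7.26 and 7.42 with shlinc-MYH, and Cct2 read 8.73 and 9.02 against 9.31 and 9.28. Cct8 was at 0.48, Tcp1 at 0.37, Cct4 at 0.31, and Cct5 and Cct7 both at 0.27. None passed the adjusted test (limma adjusted p = 0.455 for Cct3), and the subunits share the 4 arrays, so their agreement is not 8 observations.

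In mitochondria the 2 parts of one chaperonin read apart in TA. Hspd1 (Hsp60), which forms the chamber, read 9.96 and 10.08 in controls and 9.68 and 9.60 with shlinc-MYH, a log2 fold change of -0.38 (SE 0.12, limma adjusted p = 0.501). A dimmer probe set of the gene gave -0.53. Hspe1 (Hsp10), its lid, read 10.79 and 11.13 against 11.11 and 11.08 and overlapped, at 0.14 on both of its probe sets. Within each array, the Hspd1 signal minus the Hspe1 signal was -0.83 and -1.04 in controls and -1.43 and -1.48 with shlinc-MYH; this difference was not tested. These genes lie head to head on chromosome 1, with annotated starts 95 or 216 bases apart, and the HSE letters of the Hspe1 window printed above lie in the Hspd1 window too. In gastrocnemius the same difference was 0.13 to 0.21 in controls and 0.18 to 0.42 in cSix1 KO.

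**Figure D2:**
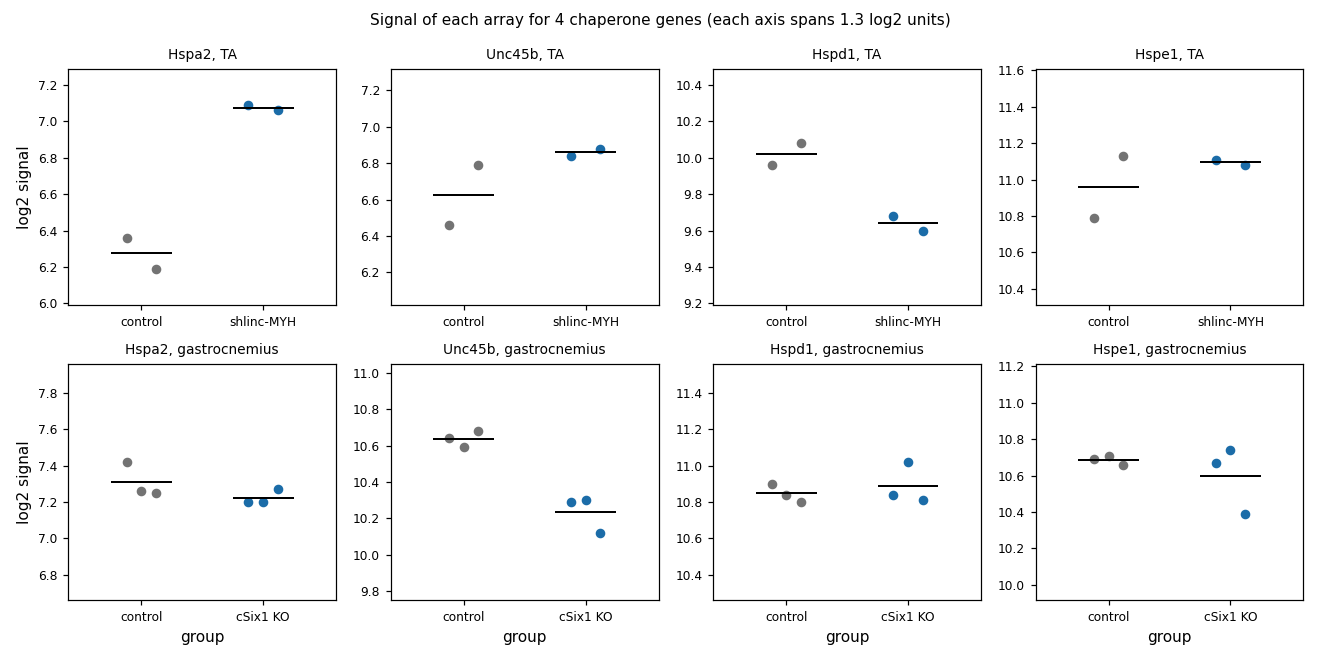
Log2 signal of each array for Hspa2, Unc45b, Hspd1 and Hspe1 in TA (top) and gastrocnemius (bottom), with controls in gray, shlinc-MYH or cSix1 KO in blue and bars at the group means; all axes span the same number of log2 units. Hspa2 lies above its controls in TA and overlaps them in gastrocnemius, Unc45b lies below its controls in gastrocnemius, and Hspd1 lies below its controls in TA while Hspe1 overlaps.

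By compartment, the TA median was 0.30 for 33 cytosolic members (28 above 0), 0.21 for 6 ER members (6 above 0) and 0.01 for 5 mitochondrial members (3 above 0). With TRiC left out, the other 25 cytosolic members had a median of 0.30 too, and 20 were above 0. A list of 10 other mitochondrial folding and protease genes had a median of -0.02 and its lowest value in Lonp1, the matrix protease, at -0.34.

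The cochaperones and heat shock factor gave mixed values in TA. Hsf2, a heat shock factor, read 7.80 and 7.54 in controls and 8.32 and 8.18 with shlinc-MYH, a log2 fold change of 0.58 (SE 0.14, limma adjusted p = 0.447), with no overlap. Ahsa1, which speeds the Hsp90 cycle, read 8.67 and 9.09 against 9.04 and 9.28 and overlapped, at 0.28, and its relative Ahsa2 was at 0.41. Stip1 (Hop), which joins Hsp70 to Hsp90, was at -0.42 (SE 0.15), the lowest member, with both arrays below both controls. Unc45b read 6.46 and 6.79 against 6.84 and 6.88, at 0.24.

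In gastrocnemius of cSix1 KO mice the members did not share a direction: 26 of 44 were above 0, against 52.8% of all genes, with a median of 0.03 (all genes, 0.01). Unc45b, the myosin chaperone, was lower, and it was the 1 member of 44 (2.27%) called by limma at an adjusted p under 0.05. That share was near the 1.74% of all genes called. All KO arrays lay above all controls for 5 members (11.4%; all genes, 11%) and below for 5 (11.4%; all genes, 9.85%), so both shares were near those of all genes. At an unadjusted p under 0.05, 6 members were higher and 3 lower, against 8.44% and 6.5% of all genes.

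**Figure D3:**
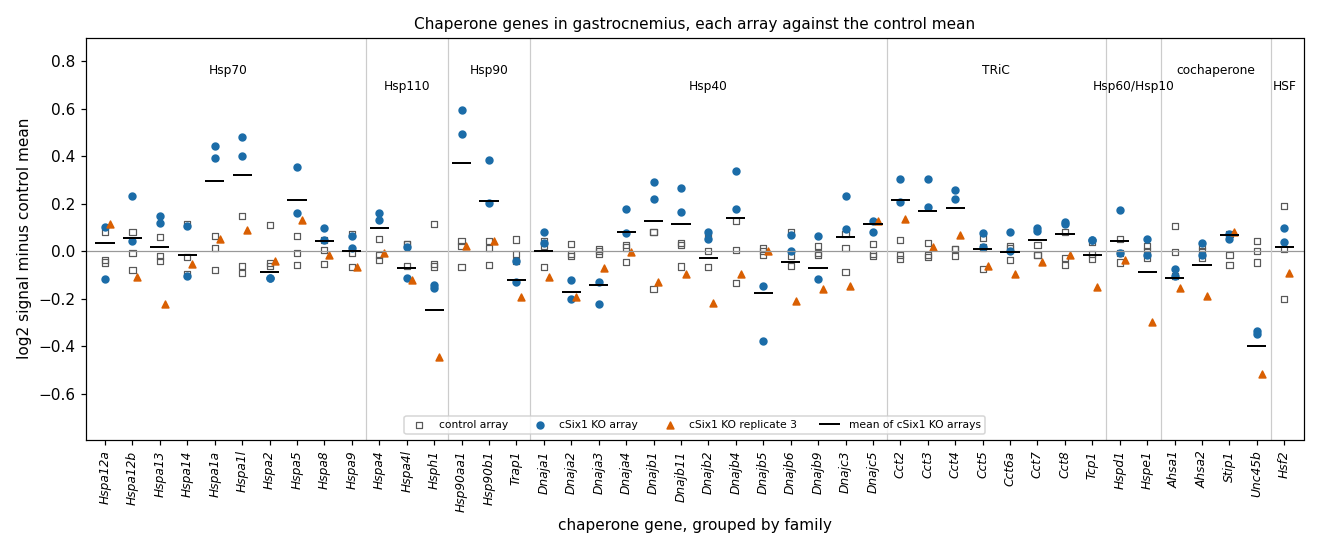
Log2 signal of each of the 44 chaperone genes on each gastrocnemius array, minus the mean of the 3 control arrays; the x axis lists the genes by family. Squares are control arrays, circles cSix1 KO replicates 1 and 2, triangles cSix1 KO replicate 3 and bars the mean of the 3 KO arrays. Unc45b stands lowest, Hsp90aa1 highest, and replicate 3 lies within the controls for Hsp90aa1, Hspa1a and Hspa1l.

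Unc45b, which brings Hsp90 to the myosin head, read 10.64, 10.59 and 10.68 in controls and 10.29, 10.30 and 10.12 in cSix1 KO. The groups did not overlap, and the log2 fold change was -0.40 (SE 0.07, n = 3 per group, 95% confidence interval -0.57 to -0.23, limma adjusted p = 0.0424), or 0.757 of control. The call was lost without any 1 control or without KO replicate 1 or 2 (limma adjusted p 0.11 to 0.155, log2 fold change -0.38 to -0.43), and it held without KO replicate 3. It was also lost with all 10 arrays in 1 fit (limma adjusted p = 0.0824) and by the methods' test. Skeletal fiber markers had a median of -0.11 in the same comparison, with 7 of 8 below 0 and 6 of 8 below all controls (all genes, 9.85%). They ran from -0.41 (Pvalb) to 0.13 (Myh1), with Acta1 at -0.01. The set includes Myh4, Tnnt3 and Pvalb, fast-type genes that the paper reports lower in TA of cSix1 KO mice, so it does not read fiber content alone. The part of these markers in the Unc45b value was not tested. In TA the Unc45b value was 0.24, and the difference between the comparisons, 0.64 (SE 0.15), did not pass (limma adjusted p = 0.157).

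The genes with the highest values in gastrocnemius were Hsp90aa1, Hspa1l and Hspa1a. Hsp90aa1 read 9.22, 9.24 and 9.13 in controls and 9.79, 9.69 and 9.22 in cSix1 KO, a log2 fold change of 0.37 (SE 0.14, limma adjusted p = 0.264). Hspa1a read 7.86, 7.81 and 7.72 in controls and 8.19, 8.24 and 7.85 in KO, a change of 0.30 (SE 0.11, limma adjusted p = 0.247). Hspa1l read 9.91, 9.70 and 9.67 against 10.16, 10.24 and 9.85, at 0.32 (SE 0.12, limma adjusted p = 0.248). In all 3 genes KO replicates 1 and 2 lay above every control and replicate 3 within the controls.

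Replicate 3 of cSix1 KO set many of the gastrocnemius values. It lay above all controls for 7 of 44 members, where replicates 1 and 2 did for 23 and 27. Of all 19938 genes, replicate 3 lay above all controls for 7559, and replicates 1 and 2 for 5881 and 5640. Without replicate 3, 33 members were above 0 (all genes, 9339 of 19938). Then 19 (43.2%) lay above all controls against 19.5% of all genes, and the median was 0.07 (all genes, -0.01). Hsp90aa1 was then at 0.54 (limma adjusted p = 0.0171) and Hspa1a at 0.42 (limma adjusted p = 0.0345), so both were called, and Unc45b remained called. Calls rose over all genes too, to 560 (2.81%) from 347 (1.74%) with every array kept. Satellite and regeneration markers read 7.72 in this array and 8.16 and 8.04 in the others. Adipocyte markers read 8.34 in it against 8.90 and 9.02, while fibroblast markers read 10.87 against 10.91 and 10.86. The part of these cell types in the values of this array was not tested. Nothing in the labels sets this array apart, and it was kept.

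The ER members of cSix1 KO muscle had a median of 0.09, with 5 of 6 above 0. Hspa5 read 11.07, 10.95 and 11.00 in controls and 11.36, 11.17 and 11.14 in KO, a log2 fold change of 0.21 (SE 0.08, limma adjusted p = 0.264), without overlap. Hsp90b1 read 10.42, 10.32 and 10.39 against 10.76, 10.58 and 10.42. It was at 0.21 (SE 0.09, limma adjusted p = 0.341), and its lowest KO array was level with its highest control at the printed precision. These are 2 of the 3 genes with an ERSE in the window. Dnajb11 was at 0.12 and Dnajc3, the third, at 0.06, and Dnajb9 read 10.36, 10.33 and 10.32 against 10.22, 10.40 and 10.18, at -0.07; these 3 overlapped.

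TRiC genes were above 0 in 6 of 8 cases, with a median of 0.06. Cct2 read 10.93, 10.85 and 10.87 in controls and 11.19, 11.09 and 11.02 in cSix1 KO, a log2 fold change of 0.21 (SE 0.07, limma adjusted p = 0.213), and with Cct4 (0.18) was one of the 2 subunits without overlap (all genes, 11%). Cct3 read 9.89, 9.84 and 9.83 against 10.16, 10.04 and 9.87, at 0.17. Without KO replicate 3, 8 of 8 were above 0 and 6 lay above all controls (all genes, 19.5%).

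Members with every cSix1 KO array below all controls numbered 5 (11.4%), near the share of all genes (9.85%). These were Unc45b, Hsph1, Dnaja2, Dnaja3 and Trap1. Hsph1 read 8.79, 8.97 and 8.80 in controls and 8.70, 8.71 and 8.41 in KO, a log2 fold change of -0.24 (SE 0.10, limma adjusted p = 0.305). Dnaja2 read 10.72, 10.68 and 10.67 against 10.49, 10.57 and 10.50, at -0.17 (limma adjusted p = 0.26). The mitochondrial Dnaja3 read 10.04, 10.03 and 10.05 against 9.82, 9.91 and 9.97, at -0.14, and Trap1 read 10.17, 10.23 and 10.14 against 10.05, 10.14 and 9.99, at -0.12. The Trap1 values touched at the printed precision.

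The remaining named members in gastrocnemius lay near control. Hspa8 read 13.12, 13.18 and 13.22 against 13.22, 13.27 and 13.16 in KO, Hspa9 11.85, 11.77 and 11.71 against 11.79, 11.84 and 11.71, and Hspa4 10.76, 10.67 and 10.69 against 10.87, 10.84 and 10.70. Hspe1 read 10.69, 10.71 and 10.66 against 10.67, 10.74 and 10.39, Ahsa1 10.05, 10.16 and 9.95 against 9.95, 9.98 and 9.90, and Hsf2 9.16, 8.95 and 9.34 against 9.25, 9.19 and 9.06. All 6 overlapped. The mitochondrial members had a median of -0.09 here, with 1 of 5 above 0.

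The comparisons differed for 1 member by a test of the difference itself, Hspa2. In gastrocnemius it read 7.42, 7.26 and 7.25 in controls and 7.20, 7.20 and 7.27 in cSix1 KO, a log2 fold change of -0.09 (SE 0.07), against 0.80 in TA. The difference, 0.89 (SE 0.13, 95% confidence interval 0.61 to 1.17), was called by limma over all 10 arrays (adjusted p = 0.027), and it was the 1 member of 44 called where 0.145% of all genes were. At an unadjusted p under 0.05, 17 members had a larger value in TA and 2 a smaller one, against 5.21% and 7.1% of all genes, and 36 of 44 differences were above 0, against 43.3% of all genes. The call was lost without either shlinc-MYH array, without gastrocnemius control replicate 1 or 2, or without KO replicate 1 or 2 (limma adjusted p 0.0553 to 0.0923, difference 0.83 to 0.91). Dnajb6, at 6.43, 6.57 and 6.47 against 6.56, 6.49 and 6.28 in gastrocnemius (-0.05), differed by 0.91 (SE 0.20) but did not pass (limma adjusted p = 0.149). The 2 perturbations differ in muscle, method and length, which cannot be told apart from the target in this difference.

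**Figure D4:**
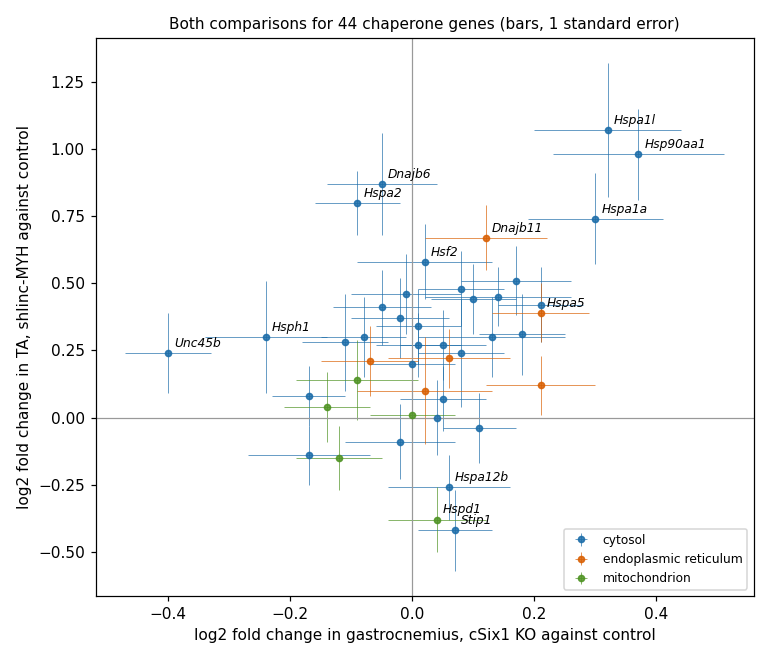
Log2 fold change of each of the 44 chaperone genes in gastrocnemius, cSix1 KO against control (x axis), and in TA, shlinc-MYH against control (y axis), with bars of 1 standard error and colors for the compartment. Most points lie above 0 on the y axis and spread to both sides of 0 on the x axis. Hspa1l, Hsp90aa1 and Hspa1a stand to the upper right, Unc45b to the left and Hspd1 and Stip1 at the bottom.

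Members that stood outside their controls in both muscles were counted by direction. Both groups stood above their controls without overlap for 4 members (9.09%; all genes, 2.62%), Hspa5, Hsp90b1, Cct2 and Cct4. They stood above control in TA and below it in gastrocnemius for 2 (4.55%; all genes, 1.36%), Unc45b and Dnaja2. Trap1 was the 1 member below its controls in both (all genes, 2.56%), and 0 members stood below control in TA and above it in gastrocnemius (all genes, 1.73%). In gastrocnemius the groups of Hsp90b1 and of Trap1 touched at the printed precision.

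Among related genes outside the list, Bag3 and the small heat shock proteins, the latter of which hold unfolded proteins for Hsp70, were read too. For 8 of 8 both shlinc-MYH arrays lay above both controls in TA (all genes, 16.3%), with a median of 0.44. Hspb1 read 8.84 and 8.86 in controls and 10.13 and 10.04 with shlinc-MYH, a log2 fold change of 1.23 (SE 0.12, limma adjusted p = 0.0579), and was called higher in cSix1 KO at 0.56 (SE 0.10, limma adjusted p = 0.0358). Hspb8 was at 1.32 in TA and -0.26 in gastrocnemius. In the same comparisons the 24 measured of 25 other Hsp70 and Hsp90 cochaperones had medians of 0.09 and -0.05 with 0 called, and 30 other J-domain genes had 0.04 and -0.05, with Dnajc12 called lower in cSix1 KO (-0.39, limma adjusted p = 0.041).

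Prefoldin, which hands actin and tubulin to TRiC, and its chaperonin helpers (9 genes) had medians of 0.15 in TA and 0.03 in gastrocnemius, with 0 called. Pdcl3, a phosducin-like helper of TRiC, was at 0.63 in TA (SE 0.13, limma adjusted p = 0.393). Of 19 genes of ER folding and the unfolded protein response, 12 were above 0 in TA (median 0.10) and 16 in gastrocnemius (median 0.14), and Ern1, the ER stress sensor IRE1, was called higher in cSix1 KO at 0.33 (SE 0.06, limma adjusted p = 0.0436). Macrophage markers had a median of 0.61 and fibroblast markers one of 0.50 in the same comparison, and their part in the ER values was not tested.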

How the data were processed

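The table deposited by the authors held log2 signals of 35556 probe sets from RMA; the submitters' processing notes name RMA and Partek without versions. All 10 arrays were used, 0 columns were left out. RMA compresses extreme signals and hides a shift of all genes. The TA and gastrocnemius arrays had different distributions, so levels were not compared between muscles. Labels and methods differ on the age, the amplification kit and the RNA amount.

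Genes were named through the platform annotation (21789 probe sets with 1 symbol, 1621 with several, 12146 with none); for each gene the probe set with the highest mean was used. Each muscle was fitted with limma 3.58.1 in R 4.3.3, with Benjamini-Hochberg adjustment over 19938 genes at 0.05; the difference was a contrast of the 4 groups over 10 arrays. Tables and plots used Python 3.11.15, pandas 2.3.3 and matplotlib 3.10.9. Arrays have no read depth; their number limits precision. For electroporation the methods take the muscles of a condition from different mice and put the control in the opposite leg. TA arrays of the 2 groups may therefore share mice, but the labels do not tie arrays to animals, and the main fit was unpaired. The p-values measure the spread between these samples.

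Members and lists were chosen with earlier results of these data known. Values per array are given for members called in any comparison, the 8 largest changes per muscle, Hsf2 and the brightest member of each family and compartment; Hspd1, Stip1 and other members were named besides, after their values were seen, and up to 4 genes per list by the size of the moderated statistic, with Hspb8, Dnajc12, Lonp1 and Pdcl3 among them. Alternatives were quantile normalization, median centring, leaving out dim genes, the mean of probe sets, 1 fit over all 10 arrays, limma's intensity trend with its robust prior, weighted arrays, a replicate block, the methods' t-test (run per gene, for comparison only) and leaving out each array.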

Additional observations from a re-analysis of the deposited data

Results flagged for a closer look

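The Hspa2 effect differed between the comparisons by a limma test of the difference itself: the log2 fold change was 0.80 for shlinc-MYH in TA and -0.09 for cSix1 KO in gastrocnemius, a difference of 0.89 (SE 0.13, adjusted p = 0.027). The call was lost on leaving out any of 6 single arrays (adjusted p 0.0553 to 0.0923). Both shlinc-MYH arrays lay above both TA controls, and the gastrocnemius groups overlapped. Muscle, method and target changed together between these comparisons.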

How the results depend on the processing

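Counts of called genes were few and unstable. In TA, 3 genes were called, 10 after median centring, 5 with the replicate block, 0 by the methods' t-test, 131 with all 10 arrays in 1 fit and 0 without any 1 array. Members called there were 0, but 4 with all 10 arrays in 1 fit (Hspa2, Hsp90aa1, Dnajb6 and Dnajb11), a fit that estimates the spread over both muscles. In gastrocnemius 347 genes were called, 543 with the intensity trend, 989 with array weights, 186 with the replicate block, 4 by the t-test and 51 to 560 without 1 array. Members called were 3 with array weights (Hspa1a, Hsp90aa1 and Unc45b), 0 with the block, the t-test or all 10 arrays, and 0 to 3 without 1 array. Unc45b had an adjusted p of 0.115 with the replicate block, 0.177 by the t-test and 0.0824 with all 10 arrays. For the difference, 29 genes were called, 16 without dim genes, 48 with the trend and 6 to 100 without 1 array, and members 0 with the block (Hspa2, limma adjusted p = 0.0871) and 0 to 2 without 1 array.

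TA medians without 1 array were 0.20 to 0.39 over all members, 0.24 to 0.45 in the cytosol, 0.18 to 0.30 in the ER and -0.08 to 0.06 in mitochondria; the ER median was 0.16 after quantile normalization. The mitochondrial median in gastrocnemius was -0.04 after quantile normalization, -0.14 after centring, -0.01 with array weights and -0.15 to 0.01 without 1 array. Values near 0 changed sign. In TA these were Hspa9 and Dnaja3 (both -0.01 after quantile normalization; -0.04 to 0.06 and -0.08 to 0.16 without 1 array) and Hspe1 (-0.03 to 0.30 without 1 array). In gastrocnemius they were Hspa8 (-0.00 after centring), Hspa9 (0.03 after quantile normalization, 0.01 with weights, -0.04 to 0.04 without 1 array), Hspe1 (-0.16 to 0.01), Dnajb6 (0.02 with weights, -0.10 to 0.03) and Hsf2 (-0.03 after centring, -0.08 to 0.11). The causes were not tested. Members above 0 in gastrocnemius numbered 26, and 19 after centring, which moved the median of all genes to -0.04.

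Whether replicate numbers pair the TA arrays is not given by the labels: deviations of same-numbered arrays correlated at 0.19 in both pairs, which with 2 arrays per group are 1 value. In gastrocnemius they correlated at 0.22, -0.14 and 0.08, and the numbers were not taken as pairs.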
